A study of Mus musculus with 9 samples.

Results

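Thrombospondins are secreted glycoproteins of the extracellular matrix, and Cd47 encodes a cell-surface receptor for thrombospondin-1. The 4 genes described here are Thbs1, Thbs2, Thbs3 and Cd47, taken by exact gene symbol from a table of 52208 genes, and 3 of the 4 had enough counts to be tested. They were chosen by the very large excess of Thbs1 in knockdown over scramble cells, so values of that comparison describe the choice and carry no test for any of the 4. Messenger RNA was sequenced from 66cl4, a mouse line of triple-negative mammary carcinoma, in 3 groups of 3 libraries. Add-back cells carried a short hairpin RNA against Eya3 together with IKK2-SE, an always-active mutant of IKK2, the kinase that turns on NF-kB. Knockdown cells carried the Eya3 hairpin with an empty vector. Scramble cells carried a non-targeting hairpin with the empty vector. Puromycin kept the hairpin in all cells, and mCherry marked those that took up either vector. No group joined the scramble hairpin to IKK2-SE, and each comparison with scramble rests on 1 hairpin line against 1 control line. The labels call the libraries biological replicates without saying whether they came from separate transductions, so the spread given here is that between these libraries.

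The libraries held 63601403 to 81534534 counts, and 16766 genes were tested. Levels are given as CPM, counts scaled to the size of their library after TMM correction, differences are edgeR log2 differences with their standard error, and a gene was called at an adjusted p below 0.05. Eya3, the gene under the hairpin, averaged 26.6 ± 2.21 CPM in add-back cells, 24.97 ± 0.602 CPM in knockdown cells and 62.7 ± 1.63 CPM in scramble cells (SD, n = 3 each). Nfkbia, which encodes the inhibitor IkB-alpha and is itself induced by NF-kB, averaged 110 ± 0.99 CPM in add-back cells, 44.3 ± 0.029 CPM in knockdown cells and 221 ± 5.76 CPM in scramble cells (SD, n = 3 each). Eya3 was thus lower in both hairpin arms than in scramble cells, and Nfkbia was higher with IKK2-SE than without it on the hairpin background. Calls against scramble were very common: 57.5% of tested genes were called between knockdown and scramble (27.7% higher and 29.9% lower) and 55.8% between add-back and scramble (27% higher and 28.7% lower). Between add-back and knockdown, 10.4% were called (5.61% higher and 4.82% lower). Libraries of the groups did not overlap for 24.7% of tested genes between add-back and knockdown (12.8% higher, 11.9% lower). The share was 63.6% between knockdown and scramble (30.6% higher, 33% lower) and 61.1% between add-back and scramble (29.6% higher, 31.5% lower). The median log2 difference over all tested genes was 0.00 in each comparison.

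Thrombospondin-1 and thrombospondin-2 form trimers and carry type 1 repeats, which bind the scavenger receptor CD36 and, in thrombospondin-1, can release active TGF-beta from its latent complex. Thrombospondin-3 belongs to the branch of the family that forms pentamers and lacks those repeats. Through its C-terminal region thrombospondin-1 engages CD47, which limits nitric oxide signalling in blood vessels. CD47 is also the signal by which a cell restrains its own uptake by macrophages, through the counter-receptor SIRP-alpha, and tumour cells often display it.

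The C-terminal end of the molecule is shown first because thrombospondin-1 engages CD47 through it. The capitals mark the coding bases of a peptide in the C-terminal domain that has been described as CD47-binding, with the flanking codons in lower case. The sequences were read on the coding strand from GENCODE transcripts of GRCm38, the mm10 build, each within 1 exon: chr2:118123357-118123410 on the plus strand for Thbs1, chr17:14670723-14670776 on the minus strand for Thbs2 and chr3:89224899-89224952 on the plus strand for Thbs3.
Thbs1: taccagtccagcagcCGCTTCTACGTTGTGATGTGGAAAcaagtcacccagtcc
Thbs2: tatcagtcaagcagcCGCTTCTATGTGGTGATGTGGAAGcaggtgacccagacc
Thbs3: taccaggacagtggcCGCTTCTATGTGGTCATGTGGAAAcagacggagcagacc
The capitals translate to the same residues in all 3 genes, and whether the products of Thbs2 and Thbs3 bind CD47 was not tested. Over the 54 bases, Thbs1 shared 46 with Thbs2 and 39 with Thbs3, and Thbs2 shared 41 with Thbs3. Within the 24 capitals the shared bases numbered 21, 21 and 22 for the same pairs. Over the whole coding sequence, 63.0% of aligned residues were the same in Thbs1 and Thbs2, 50.1% in Thbs1 and Thbs3, and 51.2% in Thbs2 and Thbs3. The coding sequences ran to 1171 codons in Thbs1, 1172 in Thbs2 and 956 in Thbs3.

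A second stretch separates Thbs1 from Thbs2. It lies between type 1 repeats and, in thrombospondin-1, codes for the short peptide known to activate latent TGF-beta. The capitals mark those 12 bases in each gene. Each run of 42 bases is spliced mRNA that crosses an exon junction, between chr2:118117636-118118181 on the plus strand for Thbs1 and chr17:14681396-14681686 on the minus strand for Thbs2.
Thbs1: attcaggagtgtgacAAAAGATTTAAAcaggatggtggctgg
Thbs2: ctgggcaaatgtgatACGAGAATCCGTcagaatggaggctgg
Only 5 of the 12 capitals and 25 of the 42 bases were the same, and the capitals code for peptides that are not the same. Codons for tryptophan, serine, any residue and tryptophan in a row, as in type 1 repeats, occurred 5 times in Thbs1, 5 times in Thbs2 and 0 times in Thbs3. These are counts of that motif and not of repeats.

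Thbs1 (ENSMUSG00000040152.8) lies on chromosome 2 at 118111876 to 118127133, on the plus strand of mm10. It had 810, 849 and 864 CPM in the add-back libraries, 1096, 1144 and 1128 CPM in the knockdown libraries, and 29.7, 30.5 and 29.0 CPM in the scramble libraries. The 3 groups did not overlap, with the knockdown libraries highest and the scramble libraries far below both hairpin arms. The values rest on 60087 to 61397 counts per add-back library, 84872 to 89747 per knockdown library and 1920 to 2384 per scramble library. In bulk RNA, more cells with the transcript and more transcript per cell cannot be told apart.

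Knockdown cells averaged 1123 ± 24.0 CPM of Thbs1 and scramble cells 29.7 ± 0.768 CPM (SD, n = 3 each), a log2 difference of 5.24 ± 0.04 (SE), or 37.8-fold. This is the value that chose the gene. It ranked 72 from the highest among the 16766 tested genes. Add-back cells averaged 841 ± 27.8 CPM (SD, n = 3), which is 28.3-fold above scramble, a log2 difference of 4.82 ± 0.04 (SE) and rank 105. Both comparisons share the scramble libraries.

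The comparison that did not pick the gene is add-back against knockdown, which asks whether active IKK2 moves it on the Eya3 hairpin background; it shares the knockdown libraries with the choice. Thbs1 fell with IKK2-SE, by 0.42 ± 0.04 (SE) on the log2 scale, 1.33-fold, with an adjusted p of 1.15e-06 in edgeR's quasi-likelihood test. It was lower in 3 of 3 add-back libraries than in every knockdown library, a pattern that 11.9% of all tested genes shared. Under 16 alternative settings the log2 difference stayed between -0.44 and -0.39, with adjusted p from 1.29e-24 to 3.29e-05. The fall was small beside the distance to scramble: the add-back level stayed 28.3-fold above it.

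**Figure D1:**
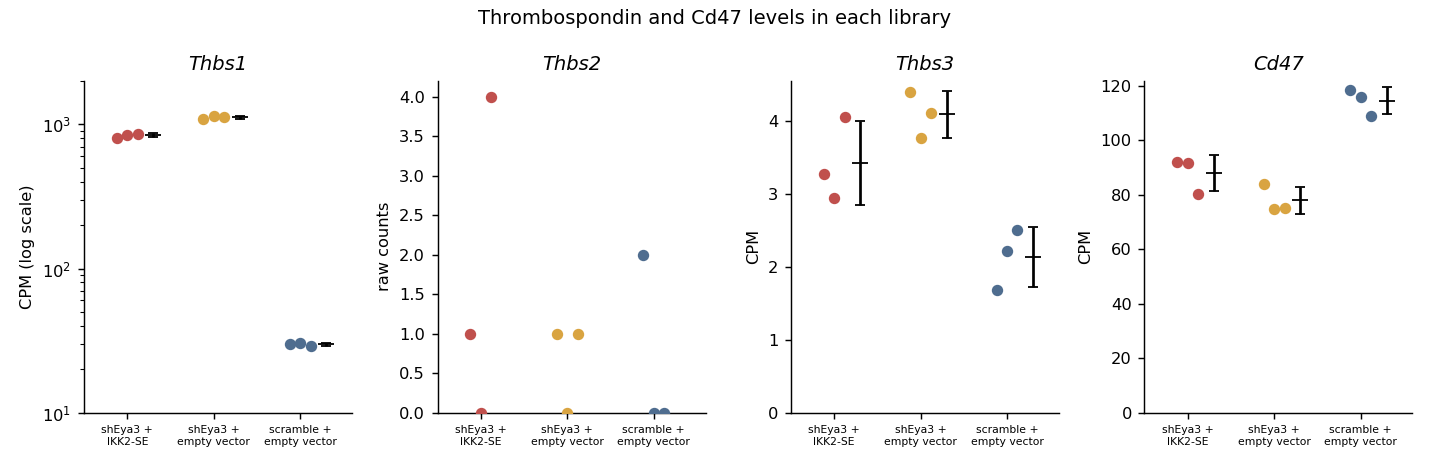
Levels of the 4 genes in each library, in TMM-scaled CPM for Thbs1 (log scale), Thbs3 and Cd47 and in raw counts for Thbs2, with add-back, knockdown and scramble cells in turn. Points are libraries, and black bars give the mean and SD of 3. Thbs1 lies near 841 and 1123 CPM in the hairpin arms and near 29.7 CPM in scramble cells, whereas Thbs2 has at most 4 counts in any library.

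Thbs2 (ENSMUSG00000023885.9, chromosome 17 at 14665500 to 14694235, minus strand) encodes the other trimeric thrombospondin. It had 1, 0 and 4 counts in the add-back libraries, 1, 0 and 1 in the knockdown libraries, and 2, 0 and 0 in the scramble libraries. Each group had a library with no count, and the sums of 5, 2 and 2 counts were too low for a test. A count of 0 in a library allows up to 3 counts, which is 0.0375 to 0.0464 CPM, and covers counting error only. No difference in Thbs2 was detectable at this depth.

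Of the remaining family, Thbs4, which codes for a pentameric thrombospondin, was as sparse. Its counts were 3, 3 and 0 in add-back, 1, 0 and 0 in knockdown, and 1, 1 and 7 in scramble libraries. Comp, the pentameric cartilage oligomeric matrix protein, passed the filter only through the scramble libraries, with 12, 21 and 60 counts summed over the add-back, knockdown and scramble groups.

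Thbs3 (ENSMUSG00000028047.11, chromosome 3 at 89215180 to 89226837, plus strand) encodes a pentameric thrombospondin and had at least 109 counts in every library. It had 3.27, 2.94 and 4.06 CPM in the add-back libraries, 4.40, 3.76 and 4.11 CPM in the knockdown libraries, and 1.69, 2.21 and 2.50 CPM in the scramble libraries. Every hairpin library lay above every scramble library, while the add-back and knockdown libraries overlapped. The counts behind these values were 208 to 284 in add-back, 295 to 352 in knockdown and 109 to 188 in scramble libraries. Of all tested genes, 30.6% lay above scramble without overlap in knockdown libraries and 29.6% in add-back libraries.

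Thbs3 averaged 4.09 ± 0.319 CPM in knockdown cells and 2.13 ± 0.412 CPM in scramble cells (SD, n = 3 each), a log2 difference of 0.93 ± 0.15 (SE), 1.91-fold, given as a description. Add-back cells averaged 3.42 ± 0.574 CPM (SD, n = 3). Thbs3 was higher there than in scramble cells by 0.67 ± 0.16 (SE) on the log2 scale, with an adjusted p of 0.00146, in 3 of 3 libraries; the alternatives gave 0.54 to 0.80 with adjusted p of at most 0.00946. With 27% of all tested genes called higher in that comparison, such a call is common. Add-back against knockdown gave -0.26 ± 0.15 (SE) with an adjusted p of 0.345, so a difference between the hairpin arms was not shown for Thbs3.

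Thbs3 overlaps Mtx1, a gene for a mitochondrial outer membrane protein on the opposite strand, over 318 exon bases. Mtx1 had 2523 to 4223 counts per library, many times the Thbs3 counts. It averaged 50.3 ± 1.47 CPM in add-back cells, 51.9 ± 0.794 CPM in knockdown cells and 38.2 ± 1.15 CPM in scramble cells (SD, n = 3 each). Its log2 difference was 0.44 ± 0.04 (SE) between knockdown and scramble, in the direction of Thbs3. Whether counting used strand is not given in the sources used here, and reads of Thbs3 and Mtx1 in the shared bases may not be told apart. The part of Mtx1 in the Thbs3 values was not tested.

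Cd47 (ENSMUSG00000055447.19, chromosome 16 at 49800533 to 49915010, plus strand) stood opposite to Thbs1 and Thbs3. It had 92.0, 91.6 and 80.2 CPM in the add-back libraries, 83.8, 74.8 and 75.1 CPM in the knockdown libraries, and 119, 116 and 109 CPM in the scramble libraries. All scramble libraries lay above all hairpin libraries, and the third add-back library fell within the knockdown range. The counts were 5617 to 6974 in add-back, 5652 to 6706 in knockdown and 7665 to 9042 in scramble libraries. Of all tested genes, 33% lay below scramble without overlap in knockdown libraries and 31.5% in add-back libraries.

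Cd47 averaged 77.9 ± 5.08 CPM in knockdown cells and 114 ± 4.97 CPM in scramble cells (SD, n = 3 each). The log2 difference, as a description, was -0.55 ± 0.06 (SE), 1.47-fold lower in knockdown cells. Add-back cells averaged 87.9 ± 6.68 CPM (SD, n = 3) and were lower than scramble cells by -0.38 ± 0.06 (SE) in log2, with an adjusted p of 2.87e-05 that rose to 0.000313 at most over the alternatives. All 3 add-back libraries showed that direction. In that comparison 28.7% of tested genes were called lower.

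Between the hairpin arms the Cd47 result depended on the analysis. Add-back against knockdown gave 0.18 ± 0.06 (SE) in log2 with an adjusted p of 0.0656, which misses the threshold. The adjusted p fell to 0.0167 without the first knockdown library, where the log2 difference was 0.23. It was 0.0105 without the third add-back library, where the difference was 0.24, and it ranged from 0.00206 to 0.236 over all alternatives. All alternatives kept the add-back cells higher.

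Levels of different genes can be set beside each other only per length of exon. Thbs1 averaged 138.5 ± 4.58 CPM per kilobase in add-back cells, 185 ± 3.96 in knockdown cells and 4.90 ± 0.127 in scramble cells (SD, n = 3 each). Cd47 averaged 14.01 ± 1.06 CPM per kilobase in add-back, 12.4 ± 0.809 in knockdown and 18.2 ± 0.792 in scramble cells (SD, n = 3 each). Thbs3 averaged 0.710 CPM per kilobase in add-back, 0.848 in knockdown and 0.442 in scramble cells. The order in add-back and knockdown cells was thus Thbs1, Cd47, Thbs3, and in scramble cells Cd47, Thbs1, Thbs3, with no overlap between neighbours in either order.

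The ratio of the Thbs1 level to the Cd47 level per length was 9.10, 9.58 and 11.1 in the add-back libraries. It was 13.5, 15.8 and 15.5 in the knockdown libraries, against 0.259, 0.272 and 0.275 in the scramble libraries. Ligand transcript exceeded receptor transcript in every hairpin library and was below it in every scramble library. The Thbs1 difference that chose the genes enters this ratio, so the contrast with scramble describes the choice and carries no test. The mean ratios were 9.94 ± 1.06, 14.9 ± 1.24 and 0.269 ± 0.0087 for add-back, knockdown and scramble cells (SD, n = 3 each). These are transcript levels, and protein was not measured here.

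**Figure D2:**
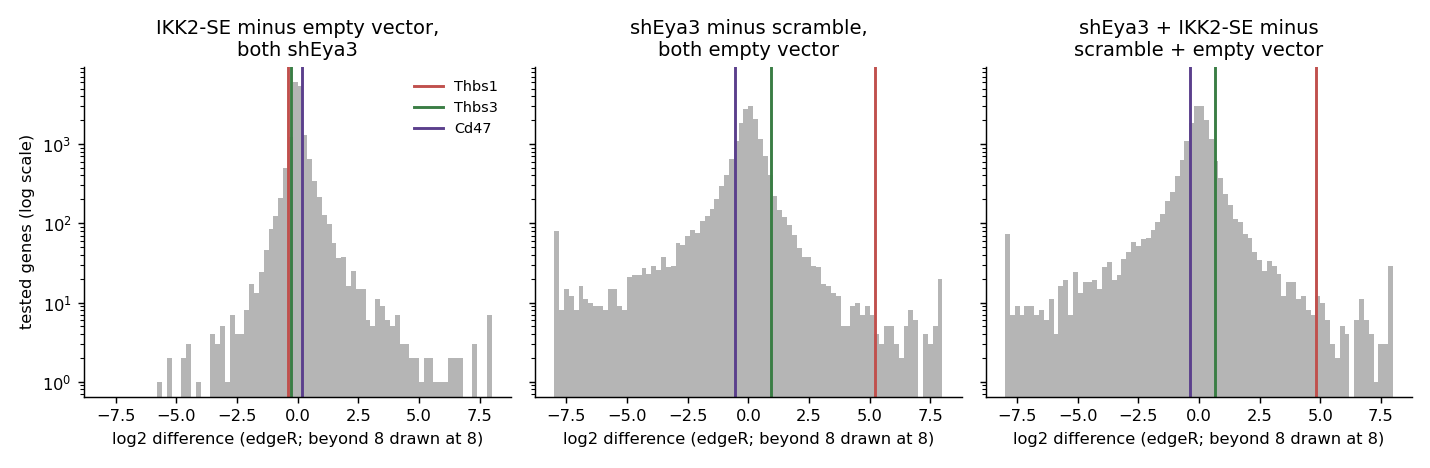
Log2 differences of all 16766 tested genes (grey, number of genes on a log scale) in the 3 comparisons, with Thbs1, Thbs3 and Cd47 as lines. Thbs1 lies at 5.24 and 4.82 in the far upper tail of the comparisons with scramble, and at -0.42 between add-back and knockdown, where Cd47 lies at 0.18 and Thbs3 at -0.26.

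The genes around Thbs1 had no common shift of its size. Over the 40 tested genes nearest to it, 20 on each side, the median log2 difference between knockdown and scramble was 0.07, with 12 called higher and 12 lower, where 27.7% of all tested genes were called higher and 29.9% lower. The 40 neighbours of Cd47 had a median of 0.05, with 9 higher and 10 lower. Around Thbs3 the neighbours had a median of 0.32, with 21 called higher and 5 lower, in the direction of Thbs3. Around Thbs2 the median was 0.41, with 26 higher and 4 lower. Between add-back and knockdown the 4 medians lay from -0.05 to 0.03.

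**Figure D3:**
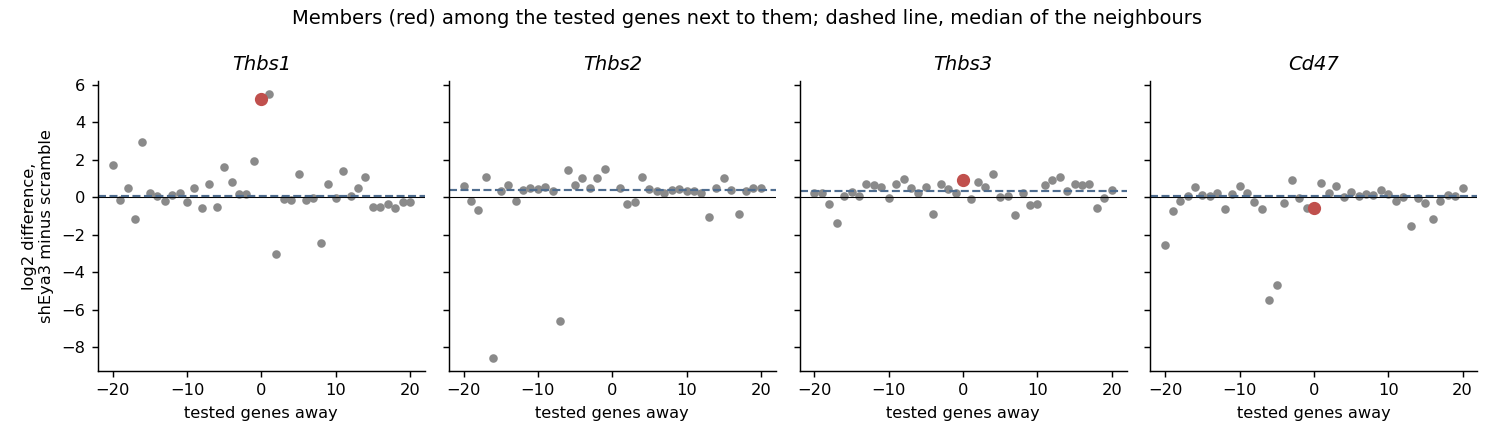
Log2 difference between knockdown and scramble (vertical axis) of each tested gene within 20 tested genes of a member (horizontal axis, genes away). Red points are the members, grey points their neighbours, and the dashed line the median of the neighbours, which is 0.07 at Thbs1, 0.41 at Thbs2, 0.32 at Thbs3 and 0.05 at Cd47; Thbs2 was not tested and has no red point.

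The grey point next to Thbs1 is Gm29233, a long intergenic RNA on the opposite strand that shares 208 exon bases with it and had 0 to 86 counts per library. It averaged 0.533 CPM in add-back, 0.903 CPM in knockdown and 0.0188 CPM in scramble cells, in the order of Thbs1. Without the strand setting its reads may not be told apart from those of Thbs1, which had at least 1920 counts in each library. Ift57, which encodes a part of the ciliary transport machinery, is the tested gene just before Cd47. It averaged 12.7 ± 1.62 CPM in add-back, 11.96 ± 0.409 CPM in knockdown and 17.8 ± 1.30 CPM in scramble cells (SD, n = 3 each). Its log2 difference between knockdown and scramble, -0.58 ± 0.08 (SE), was close to that of Cd47.

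Promoter sequence is shown for Thbs3 and Cd47, which differed from scramble in opposite directions. Each run is the 250 bases before the RefSeq start on GRCm38.p6, on the gene's strand, at chr3:89214930-89215179 for Thbs3 and chr16:49855404-49855653 for Cd47. The RefSeq start of Cd47 lies inside the wider gene of the GENCODE annotation. Capitals mark the motif matches found on either strand.
Thbs3: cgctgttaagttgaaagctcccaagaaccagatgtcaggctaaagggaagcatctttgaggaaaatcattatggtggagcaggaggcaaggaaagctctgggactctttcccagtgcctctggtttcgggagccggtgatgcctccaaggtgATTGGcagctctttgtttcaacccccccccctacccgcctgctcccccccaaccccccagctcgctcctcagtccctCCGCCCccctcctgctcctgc
Cd47: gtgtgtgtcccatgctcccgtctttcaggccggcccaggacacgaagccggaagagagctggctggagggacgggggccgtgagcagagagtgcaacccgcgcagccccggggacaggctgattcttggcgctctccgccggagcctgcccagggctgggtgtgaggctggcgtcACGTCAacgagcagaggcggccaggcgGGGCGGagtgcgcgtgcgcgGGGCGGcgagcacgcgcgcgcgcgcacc
The GC box GGGCGG, a core of SP1 sites, occurred 1 time in the Thbs3 window and 2 times in the Cd47 window; 32.7% of the 32851 windows of this length in the table hold it. The CCAAT box occurred 1 time in Thbs3, against 33.8% of windows. The cyclic AMP response core TGACGT occurred 1 time in Cd47, against 6.47% of windows. No match was found in either window for NF-kB as GGGACTTTC, GGGAATTTC or GGGAAATTC (0.697% of windows), AP-1 as TGACTCA or TGAGTCA (4.46%), TEAD as GGAATG (12.6%) or the E-box CACGTG (6.02%). No motif overlapped another, and a match or its absence describes these letters only.

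The genes most like each member were found by the root-mean-square difference of log2 CPM over the 9 libraries, each centred on its own mean, among 10904 genes. For Thbs1 they were Col5a2 at 0.231, Kcnk10 at 0.273, Kcnf1 at 0.298, Aqp1 at 0.314 and Olfml2b at 0.349. Col5a2, a chain of fibrillar collagen V, averaged 65.1 CPM in add-back, 61.7 CPM in knockdown and 1.85 CPM in scramble cells. The potassium channel gene Kcnk10 averaged 6.84 CPM in add-back, 10.2 CPM in knockdown and 0.333 CPM in scramble cells. Kcnf1, another potassium channel gene, averaged 14.8 CPM in add-back, 17.8 CPM in knockdown and 0.722 CPM in scramble cells. The water channel gene Aqp1 averaged 9.61 CPM in add-back, 8.77 CPM in knockdown and 0.274 CPM in scramble cells. The olfactomedin gene Olfml2b averaged 12.02 CPM in add-back, 10.1 CPM in knockdown and 0.365 CPM in scramble cells. Having been picked for their pattern over all 9 libraries, these genes carry no test here.

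Nearest to Thbs3 were 2310039H08Rik at 0.124, the mitosis gene Depdc1a at 0.146 and the DNA repair factor gene Paxx at 0.161. Nearest to Cd47 were Pomgnt1 at 0.0367, which encodes a glycosyltransferase of alpha-dystroglycan, the mitochondrial carrier gene Slc25a42 at 0.0371 and Dcbld2 at 0.0480. Dcbld2, which encodes a membrane receptor, averaged 124 CPM in add-back, 109 CPM in knockdown and 164 CPM in scramble cells.

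Receptors described for thrombospondins were measured beside Cd47 in a list of 15, of which 13 were tested. With IKK2-SE, 2 rose and 2 fell against knockdown, with a list median of -0.06 in log2 (over all tested genes the median was 0.00 and 10.4% were called, which also stand behind the lists below). Itga6, an integrin chain that binds laminin and the thrombospondin N-terminus, fell by 0.31 with an adjusted p of 0.000128. Vldlr, a lipoprotein receptor that also takes thrombospondin, fell by 0.25 with an adjusted p of 0.0119, a call lost in 3 alternatives that leave out a library (adjusted p 0.0527 to 0.0664). The rises of the proteoglycan gene Sdc1 (0.14, adjusted p 0.038) and of Calr, which codes for calreticulin (0.15, adjusted p 0.0444), were lost in 9 and 7 of the 16 alternatives.

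Against scramble, 5 receptors were higher in knockdown cells and 3 lower, with a median of 0.19, where 57.5% of all genes were called. Cd36, the receptor for the type 1 repeats, averaged 6.87 ± 0.487 CPM in add-back, 5.96 ± 0.797 CPM in knockdown and 0.456 ± 0.0804 CPM in scramble cells (SD, n = 3 each). Its log2 difference between knockdown and scramble was 3.71 ± 0.16 (SE). Itga3, an integrin chain that pairs with beta-1 and binds thrombospondin-1, averaged 866 CPM in add-back, 857 CPM in knockdown and 462 CPM in scramble cells. The 3 lower receptors fell outside the rule for named genes and are named after their values were seen. Cacna2d1, a calcium channel subunit that binds thrombospondins, averaged 0.436 CPM in add-back, 0.424 CPM in knockdown and 4.67 CPM in scramble cells. Itgb1, the beta-1 integrin chain, averaged 509.7 CPM in add-back, 531 CPM in knockdown and 624 CPM in scramble cells. Scarb1, a scavenger receptor of the CD36 family, averaged 97.8 CPM in add-back, 102 CPM in knockdown and 108 CPM in scramble cells.

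Of 13 genes for partners of CD47 and signals of cell uptake, 9 were tested. Between knockdown and scramble 0 were called higher and 5 lower, with a median of -0.10. Over all tested genes 27.7% were called higher and 29.9% lower. Qpctl, whose enzyme modifies the end of CD47 that SIRP-alpha binds, averaged 15.1 ± 0.655 CPM in add-back, 13.2 ± 0.442 CPM in knockdown and 18.7 ± 0.107 CPM in scramble cells (SD, n = 3 each). Its log2 difference between knockdown and scramble was -0.50 ± 0.06 (SE). B2m, the light chain of MHC class I, differed by -0.30 and Mfge8, a bridge to dying cells, by -0.29. Anxa1, which encodes annexin A1, differed by -0.28. Sirpa, the gene of the macrophage counter-receptor, had 0 counts in all 9 libraries.

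With IKK2-SE, 2 of those 9 genes rose and 2 fell against knockdown, with a median of 0.10. Mfge8 fell by 0.16 with an adjusted p of 0.0056. Calr and B2m rose, B2m by 0.14 with an adjusted p of 0.0263, lost without the first knockdown, the first add-back or the third add-back library (0.104, 0.057 and 0.0774). Bnip3, a mitophagy gene whose protein is bound by CD47, fell by 0.30 with an adjusted p of 0.0374, lost in 5 alternatives. Qpctl, at 0.19 with an adjusted p of 0.0572, missed the threshold and passed it in 4 alternatives.

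Thrombospondin-1 acts on latent TGF-beta, and 12 of 15 genes of that system were tested. With IKK2-SE 5 rose and 2 fell against knockdown, with a median of 0.08. Ltbp2, a latent TGF-beta binding protein of the matrix, averaged 77.3 ± 4.2 CPM in add-back, 21.2 ± 2 CPM in knockdown and 71.7 ± 3.13 CPM in scramble cells (SD, n = 3 each). It rose by 1.86 ± 0.06 (SE) on the log2 scale with an adjusted p of 6.77e-12. The receptors moved unequally: Tgfbr3 rose by 0.75 and Tgfbr1 by 0.46, whereas Tgfbr2 fell by 0.33 (adjusted p 1.88e-08, 3.62e-05 and 1.92e-05).

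Against scramble, 3 of the 12 were higher in knockdown cells and 7 lower, with a median of -0.65. Over all tested genes 27.7% were called higher and 29.9% lower. Ltbp1, which ties TGF-beta to the matrix, averaged 209 CPM in add-back, 240 CPM in knockdown and 81.1 CPM in scramble cells. Ltbp4 averaged 77.8 CPM in add-back, 76.2 CPM in knockdown and 265 CPM in scramble cells. The ligand gene Tgfb2 averaged 3.57 CPM in add-back, 3.41 CPM in knockdown and 9.48 CPM in scramble cells. Ltbp1 alone of these 3 stood on the side of Thbs1.

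The shared targets of TGF-beta and YAP had 12 of 14 members tested. Between add-back and knockdown 3 rose and 4 fell, with a median of -0.07. Ccn1, a matricellular gene, and Smad7, which feeds back on TGF-beta, fell by 0.27 and 0.25 (adjusted p 0.000343 and 0.00216). Id1, an inhibitor of DNA binding, rose by 0.28 with an adjusted p of 0.00379. Against scramble, 4 were higher and 5 lower in knockdown cells (57.5% of all tested genes called), with a median of -0.09. Ccn2, a matricellular target of both pathways, averaged 247 CPM in add-back, 242 CPM in knockdown and 30.3 CPM in scramble cells, while Ankrd1 averaged 334 CPM in add-back, 307 CPM in knockdown and 710 CPM in scramble cells.

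All 13 genes of a list of regulators described at the THBS1 promoter were tested. With IKK2-SE 2 rose and 2 fell against knockdown, with a median of -0.03. Jun, an AP-1 subunit, fell by 0.37 and Myc, described as a repressor of thrombospondin-1, by 0.19 (adjusted p 9.88e-06 and 0.00494). Smad3, which carries TGF-beta signals, rose by 0.39 with an adjusted p of 0.000109, and Id1, also described as a repressor, is given above. Against scramble 8 were higher and 3 lower in knockdown cells, with a median of 0.24. Over all tested genes 27.7% were called higher and 29.9% lower. Myc averaged 313 CPM in add-back, 358 CPM in knockdown and 249 CPM in scramble cells. Smad4 averaged 193 CPM in add-back, 204 CPM in knockdown and 112 CPM in scramble cells. Egr1, an early growth response factor, averaged 2.45 CPM in add-back, 2.17 CPM in knockdown and 7.98 CPM in scramble cells.

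Type 1 repeats need sugars and chaperones on their way out of the cell, and 6 of 7 such genes were tested. Dpy19l1 rose with IKK2-SE by 0.44 (adjusted p 1.2e-06) and Dpy19l3, a C-mannosyltransferase for these repeats, by 0.21 (adjusted p 0.0224, lost in 4 alternatives); 0 fell. Against scramble 3 were higher and 3 lower in knockdown cells (57.5% of all tested genes called), with a median of 0.04. Pofut2, which adds fucose to type 1 repeats, averaged 56.5 CPM in add-back, 56.2 CPM in knockdown and 85.2 CPM in scramble cells. The folding genes Pdia3 and Hspa5 were higher in knockdown than in scramble cells, by 0.45 and 0.30 in log2.

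Among 20 other matricellular and matrix genes, 9 were tested. Between knockdown and scramble 5 were higher and 4 lower (57.5% of all tested genes called), with a median of 0.76. Spp1, the gene of osteopontin, differed the most of those 9, by 3.09 in log2, with 2390 ± 123 CPM in add-back, 1669 ± 97.6 CPM in knockdown and 196 ± 1.42 CPM in scramble cells (SD, n = 3 each). It rose further with IKK2-SE, by 0.52 with an adjusted p of 1.08e-06, where Thbs1 fell. Sparc, whose protein binds collagen, fell with IKK2-SE by 0.25 (adjusted p 0.000257) and differed by -0.90 between knockdown and scramble. In all, 1 rose and 2 fell with IKK2-SE, with a median of -0.03.

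Of 42 other genes for proteins with type 1 repeats, 17 were tested. Between knockdown and scramble 4 were higher and 10 lower, with a median of -0.92. Over all tested genes 27.7% were called higher and 29.9% lower. Adamts7, a secreted metalloprotease, averaged 15.6 ± 0.647 CPM in add-back, 5.57 ± 0.78 CPM in knockdown and 39.6 ± 0.488 CPM in scramble cells (SD, n = 3 each). It rose with IKK2-SE by 1.48 with an adjusted p of 2.6e-09. Adamts1, a protease that can cut thrombospondins, fell with IKK2-SE by 0.40 (adjusted p 0.000133) and differed by -0.92 between knockdown and scramble. The netrin receptor gene Unc5b fell by 0.25 with an adjusted p of 0.00568. In all, 3 rose and 3 fell with IKK2-SE, with a median of 0.18.

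Thrombospondin-1 and CD47 are known to oppose vessel growth and nitric oxide signalling, and 9 of 14 genes of those pathways were tested. With IKK2-SE 4 rose and 1 fell against knockdown, with a median of 0.20. Nos2, the inducible nitric oxide synthase, averaged 43.6 ± 4.72 CPM in add-back, 6.21 ± 2.15 CPM in knockdown and 7.56 ± 1.58 CPM in scramble cells (SD, n = 3 each), and rose by 2.81 with an adjusted p of 0.000107. Vegfc, a growth factor for lymphatic vessels, averaged 1.31 CPM in add-back, 0.263 CPM in knockdown and 17.1 CPM in scramble cells. Vegfc rose by 2.30 between add-back and knockdown (adjusted p 3.72e-06). Vegfa, the main growth factor for blood vessels, fell by 0.42 with an adjusted p of 5.41e-05, in the direction of Thbs1. Against scramble 3 were higher and 3 lower in knockdown cells (57.5% of all tested genes called), with a median of -0.09.

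**Figure D4:**
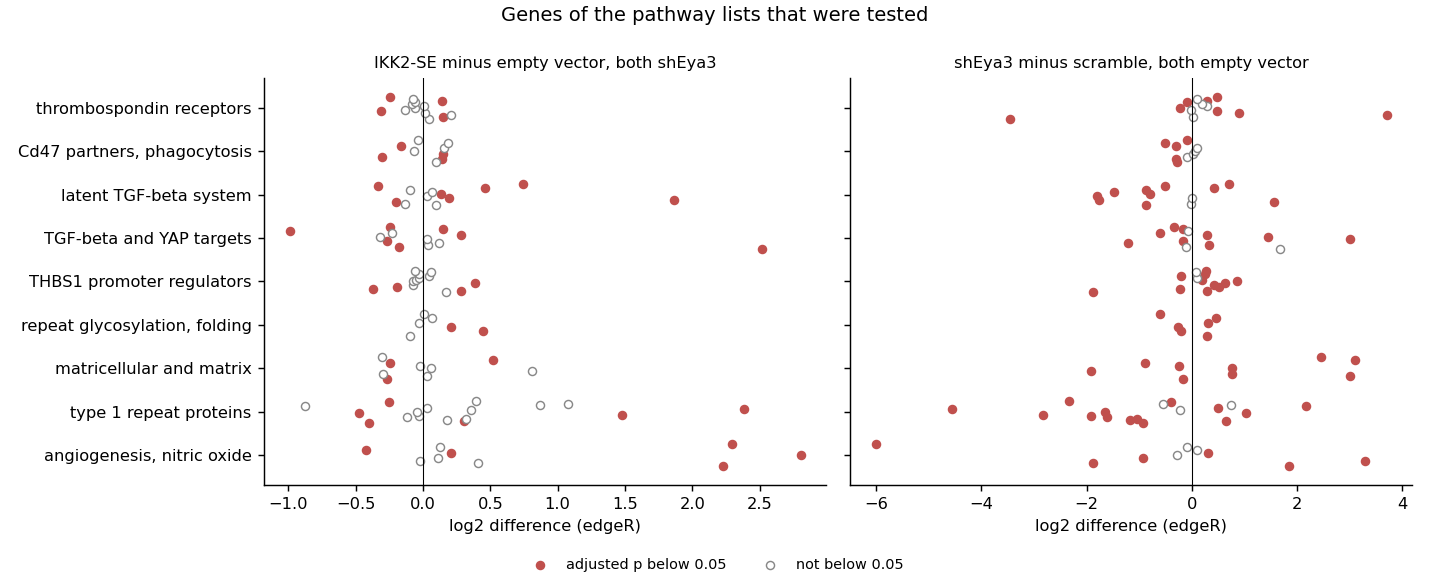
Log2 differences of the tested genes of the 9 pathway lists, for add-back minus knockdown (left) and knockdown minus scramble (right, with a wider scale), 1 point per gene; filled points have an adjusted p below 0.05. Most points of the left panel lie near 0, with Nos2 at 2.81, and in the right panel Vegfc lies at -6.00 and Cd36 at 3.71.

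Markers of other cells were read in the same libraries. The defining epithelial genes Epcam and Cdh1 averaged at most 0.0444 and 0.076 CPM in any group, while the 6 epithelial markers summed to 1029 to 1106 CPM in add-back, 1255 to 1388 CPM in knockdown and 596 to 649 CPM in scramble libraries. Nearly all of that was the keratin gene Krt8, which averaged 1073 CPM in add-back, 1329 CPM in knockdown and 628 CPM in scramble cells, in the order of Thbs1. Of the 4 tested epithelial genes, 2 were called higher and 1 lower in knockdown than in scramble cells. Krt8 and Krt5 differed by 1.08 and 2.76 in log2, and Krt14 by -2.02. The summed level of 7 fibroblast markers was 56.1 to 59.7 CPM in add-back, 50.1 to 55.9 CPM in knockdown and 51.9 to 54.3 CPM in scramble libraries. Of its 5 tested genes, 3 were called higher and 2 lower in knockdown than in scramble cells. The log2 differences were 5.89 for Col1a2, 5.29 for Dcn, 2.52 for Pdgfrb, -0.27 for Pdgfra and -0.61 for Col1a1. Col1a2 averaged 4.18 CPM in knockdown and 0.0682 CPM in scramble cells, and Dcn 0.0647 and 0 CPM. Dcn passed the filter only through the add-back libraries, at 0.713 CPM on average, and its difference of 5.29 has an SE of 1.39. The similar sums thus do not mean that the single fibroblast markers were unchanged. The 5 endothelial markers summed to 0.777 to 1.23 CPM in add-back, 0.346 to 0.650 CPM in knockdown and 4.32 to 5.10 CPM in scramble libraries. Of the 3 tested endothelial genes, 1 was called higher and 1 lower in knockdown than in scramble cells. Cdh5 averaged 0.634 CPM in add-back, 0.226 CPM in knockdown and 4.36 CPM in scramble cells. Emcn went the other way, with 0.226, 0.162 and 0 CPM in the same order. Their log2 differences between knockdown and scramble were -4.25 and 6.61. The 6 platelet markers, of interest because platelets store thrombospondin-1, summed to at most 3.18 CPM in add-back, 3.02 CPM in knockdown and 5.75 CPM in scramble libraries, with Pf4 at or near 0. Ppbp, of the same list, differed by -2.92 in log2 between knockdown and scramble and by 1.28 between add-back and knockdown, both called. Between knockdown and scramble, 0 of the 3 tested platelet genes were called higher and 2 lower. For the 6 macrophage markers the sums were at most 24.8, 22.6 and 33.4 CPM for add-back, knockdown and scramble libraries, with Adgre1 at or near 0. Cd68, of the same list, averaged 3.43 CPM in add-back, 4.20 CPM in knockdown and 14.5 CPM in scramble cells. Of the 3 tested macrophage genes, Cd68 alone was called between knockdown and scramble. Lyz2 alone was called between add-back and knockdown, at 0.29. Of the tested markers, 1 of 4 epithelial, 4 of 5 fibroblast, 1 of 3 endothelial, 1 of 3 macrophage and 1 of 3 platelet genes were called between add-back and knockdown, where 10.4% of all tested genes were called. Between knockdown and scramble these numbers were 3 of 4, 5 of 5, 2 of 3, 1 of 3 and 2 of 3, where 57.5% of all tested genes were called. Of 10 genes that track RNA quality, Neat1 alone was called between add-back and knockdown, at -0.41, and Malat1 alone between knockdown and scramble, in the main analysis. Over the 16 alternatives, 0 were called higher and 1 to 2 lower between add-back and knockdown. Between knockdown and scramble, 0 to 2 were called higher and 1 to 4 lower. The part of these genes in the Thbs1 and Cd47 values was not tested.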

How the data were processed

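The labels' protocols describe RNA from 66cl4 cells, purified on columns and turned into mRNA-seq libraries. The authors deposited raw counts, 1 whole number per gene symbol and library, without normalization. Reads went through FastQC, MultiQC and STAR on mm10, per the submitters' processing notes; which program counted reads, on which annotation and strand, is not given in the sources used here. Columns were matched to libraries by arm and replicate number; columns say KD3 where titles say KD2, so the hairpin is not named.

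Counts of 16766 of 52208 genes passed edgeR's filterByExpr (minimum count 10, minimum total 15; 29899 had a count). After TMM scaling, robust quasi-likelihood fits over all 9 libraries were made in edgeR 4.0.16 under R 4.3.3, with Benjamini-Hochberg adjustment and a threshold of 0.05. The spread over genes was a biological coefficient of variation of 5.26%, with 6 residual degrees of freedom. Replicates differed by more than sampling noise (chi-square per degree of freedom 3.85 to 20.7). Positions came from GENCODE vM21, for 96.9% of tested genes. Levels per length use the union of exons.

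Sequences of coding stretches came from the GENCODE transcripts and promoters from RefSeq, which matched 3 of the 4 genes.

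The genes and lists were chosen with earlier results of these data known. Named genes were the 4, Thbs4, Comp, Eya3, Nfkbia, overlapping and adjacent genes, up to 4 called genes per list and comparison (smallest adjusted p for add-back against knockdown, largest difference for knockdown against scramble at a mean log2 CPM of at least 1), and the nearest genes by pattern; the text gives a part of them, and 1 gene of the lists is not reported here. The 16 alternatives were library totals, DESeq2 1.42.0, limma 3.58.1 with voom, no filter, a filter of over 1 CPM in 3 libraries, a replicate block, only the 2 groups compared, and leaving out each library.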

Additional observations from a re-analysis of the deposited data

How the results depend on the processing

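For Thbs1, Thbs3, Cd47 and the 3 counts of called genes, 185 of 192 values from the alternatives were scored as the same, and 0 of 192 reversed. A tested value was the same if it kept its direction and its side of the threshold, and a count if within 1.5 times. A value given as a description was the same if it kept its direction and shifted by less than the within-group SD of log2 CPM. The exceptions follow. Thbs1 between knockdown and scramble was 5.19 in log2 with library totals. Cd47 between add-back and knockdown passed the threshold with library totals (0.20), no filter (0.17) and a replicate block (0.17), and leaving out each library gave 0.14 to 0.24; the cause was not tested. Called genes between add-back and knockdown numbered 2678 with the replicate block against 1749, and 1168 to 1800 without single libraries; 53.8% of the calls were higher in the main analysis and 65.9% with library totals. Calls between knockdown and scramble ran from 8799 to 9898 and those between add-back and scramble from 8500 to 9511 without single libraries. Same-numbered libraries correlated at -0.0111 to 0.123 and others at -0.0814 to 0.0464. The highest value, 0.123, joined the first knockdown and the first add-back library. As the ranges overlap, they cannot decide whether the numbers pair the libraries, and the main analysis used no replicate block. For single genes other than Thbs1, Thbs3 and Cd47, on the lists or not, 35 of 1434 values lost their call and 4 gained one. Over the alternatives, rises and falls with IKK2-SE numbered 0 to 2 and 1 to 3 among receptors, 0 to 3 and 1 to 2 among CD47 partners, 3 to 5 and 2 to 3 in the latent TGF-beta system, 1 to 4 and 3 to 5 among TGF-beta and YAP targets, and 1 to 4 and 2 to 4 among type 1 repeat genes. Depth limits Thbs2 and Thbs4, which had at most 4 and 7 counts in a library, and 3 libraries a group limit the small differences between the hairpin arms.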
